A study of Mus musculus with 2 samples.

Results

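The JAK, STAT and SOCS genes described here are 9 of the 21851 protein-coding genes of the GENCODE vM21 annotation of the mm10 mouse genome: the kinases Jak1 and Jak3, the transcription factors Stat2, Stat3, Stat4, Stat5a, Stat5b and Stat6, and the inhibitor Socs1. They were chosen by name, with earlier results of these data known. Every peak and footprint in the gene body or within 10 kb of it was collected. Chromatin accessibility had been measured by DNase-seq, in which the enzyme DNase I cuts open chromatin and the cut ends are sequenced, in whole thymus. The mice were female B6CASTF1/J, an F1 cross of B6 and CAST, and 18 to 20 months old. The 2 libraries form 1 group with no treatment, and are biological replicates 1 and 2. Their labels share 1 donor record but have different biosample records. Whether they came from separate animals is not said, and their spread may be only technical. There is no second age, sex, tissue or genotype, so no contrast was tested.

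Cytokines bind receptors that have no kinase of their own, and the receptors bring together JAK kinases, which phosphorylate each other and the receptor tail. STAT proteins dock there, are phosphorylated, pair up and enter the nucleus, where most pairs recognise a short palindrome; Stat2 acts mainly in a complex with Irf9 on the interferon response element. SOCS proteins, themselves induced by STATs, bind the kinases or receptors and shut the signal down. In the thymus, interleukin-7 signals through Jak1, Jak3 and Stat5 to keep early thymocytes alive, and Socs1 limits cytokine signalling in developing T cells.

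Each library has a shorter and a longer peak list. The shorter list, with 50648 peaks in replicate 1 and 49872 in replicate 2, is used unless the longer is named. Signal is the value the authors deposited for each peak, on a scale that is not stated, and sequencing depth is unknown. In whole tissue, fewer cells with an open site and less cutting per cell cannot be told apart. Promoter peaks of 7 of 8 T cell and thymocyte marker genes were found in both libraries (Cd4 in replicate 2 only), against 2 of 6 thymic epithelial, 0 of 4 myeloid, 1 of 4 adipocyte and 2 of 4 fibroblast markers. Over all protein-coding genes the share was 53.4%. The myeloid marker Itgam had a promoter peak in replicate 1 only (1.18). In the longer list, Cd4 (1.38 and 1.79) and the myeloid markers Itgam (1.18 and 1.29) and Lyz2 (0.421 and 0.528) had one in both libraries. Foxn1, Psmb11, Csf1r, Adgre1 and Adipoq had no promoter peak in either library, while Aire, a regulator in thymic epithelium, had signals of 4.60 and 2.92. Of the thymic epithelial, adipocyte and fibroblast markers, Epcam, Pparg, Col1a1 and Pdgfra also had a promoter peak in both libraries. Markers without a promoter peak could still have peaks in the gene and its 10 kb flanks. In each library Foxn1 had 4 there, Adipoq 3 and Psmb11 1, while Csf1r and Adgre1 had 0. The part that cells other than thymocytes play in the results was not tested.

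All 9 genes had an accessible promoter, meaning a peak whose centre was at most 1 kb from the start of a coding transcript, in both libraries. The same held for 53.4% of all protein-coding genes, and for 57.8% with the longer list. Signals covered a wide range, from Stat3 (19.8 in replicate 1 and 13.9 in replicate 2) to Stat4 (1.82 and 1.96). The median over the 9 genes was 5.73 in replicate 1 and 6.43 in replicate 2, against 5.69 and 5.08 over the 12012 and 11941 genes with a promoter peak in that library. The genes therefore lay on both sides of the middle of all open promoters: Stat3 exceeded 98.7% of them in replicate 1 and 91.0% in replicate 2, while Stat4 exceeded 15.6% and 19.8%.

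In order of mean signal the genes ran Stat3, Jak1, Socs1, Stat2, Stat6, Stat5a, Stat5b, Jak3 and Stat4. Both libraries of Stat3 were above both of Jak1, both of Stat2 above both of Stat6, both of Stat5b above both of Jak3, and both of Jak3 above both of Stat4. The ranges of the other neighbours in the order overlapped. Within each library Jak1 was above Socs1 and Stat6 above Stat5a, while Socs1 and Stat2, and Stat5a and Stat5b, changed places between the libraries. Replicate 1 was the higher for Stat3, Jak1, Socs1, Stat5b and Jak3, and replicate 2 for the other 4 genes. After the median log2 ratio of all 37494 peaks paired between libraries (-0.17, replicate 2 over replicate 1) was subtracted, the 9 ratios ran from -0.34 for Stat3 to 0.37 for Stat2, all inside the central 95% of paired peaks of similar signal. The Socs1 ratio set different peaks against each other, since its highest promoter peak was not the same one in each library.

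**Figure D1:**
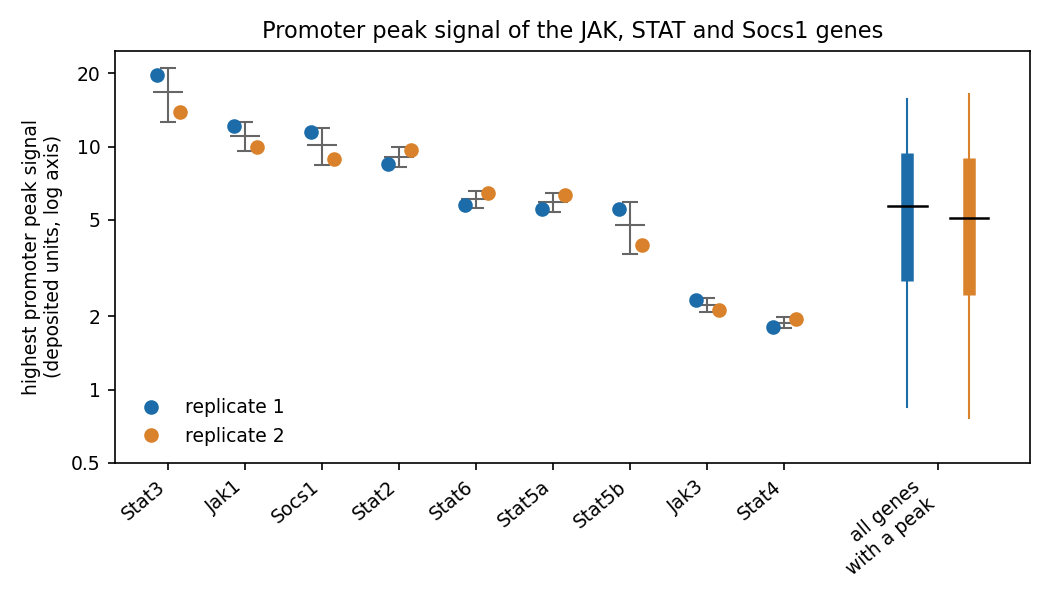
Signal of the strongest promoter peak of each gene (vertical log axis, deposited units) in replicate 1 (blue) and replicate 2 (orange), with the mean and SD of the 2 libraries in grey. At the right, boxes span the middle 50% of all genes with a promoter peak in that library, thin lines run from the 5th to the 95th percentile and black bars mark the medians of 5.69 and 5.08. Stat3 lies at the top and Jak3 and Stat4 lie below the boxes.

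By the median, the 9 genes held more peaks than all protein-coding genes, which include genes without a promoter peak. Genes with a promoter peak were not counted apart. The median was 7 peaks per gene with its flanks in replicate 1 and 8 in replicate 2, against 2 in both libraries over all protein-coding genes. The median span was 45.8 kb against 37.4 kb, and per 100 kb the medians were 9.40 and 11.1 peaks against 3.96 and 3.58. Without the flanks the mean of the 2 library medians fell from 7.5 to 3.5, against 1 over all genes. Stat6 had the most peaks, 10 in replicate 1 and 15 in replicate 2, and Stat2 the fewest, 2 in each, equal to the median of all genes. The share of all genes with fewer peaks was 41.2% and 44.5% for Stat2 and 56.3% and 80.1% for Jak3. For the other members it ran from 86.0% (Stat4, replicate 2) to 98.7% (Stat6, replicate 2). Footprints, which are short stretches protected from cutting inside open chromatin, had medians of 34 and 57 per gene against 10 in both libraries over all genes, or, as means of the 2 libraries without flanks, 17 against 3. Not all of them lay in peaks of the shorter list: 71.0% and 64.4% did in the 9 spans, against 70.2% and 64.9% of all footprints.

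Merged over libraries and genes, the peaks made 70 sites. Of these, 50 were seen in both libraries, 3 in replicate 1 only and 17 in replicate 2 only. Thus 94.3% of the 53 peaks of replicate 1 were overlapped by a peak of replicate 2, and 74.6% of the 67 peaks of replicate 2 by one of replicate 1, against 79.4% and 80.7% of all peaks. The highest signal among the sites seen in 1 library was 2.17, and 7 of the 20 had a peak in the longer list of the other library. By position, 20 sites were at promoters of the 9 genes, 8 at promoters of other genes only, 32 in introns, 6 in exons and 4 between genes. The share of peaks over 1 kb from any start site of a protein-coding gene was 60.4% and 59.7%, close to the 61.0% and 60.6% of all peaks.

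**Figure D2:**
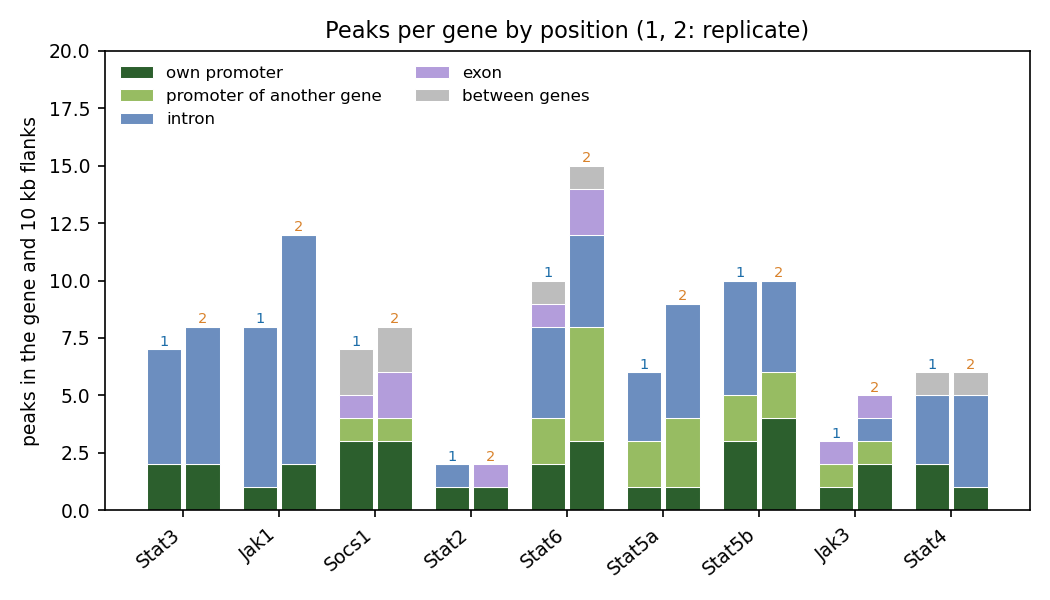
Number of peaks in each gene and its 10 kb flanks (vertical axis), split by where the peak centre lies, with replicate 1 at the left and replicate 2 at the right of each pair of bars. Stat6 reaches 10 and 15 peaks, many of them at the neighbours Nab2 and Nemp1, while Stat2 has 2 in each library.

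**Figure D3:**
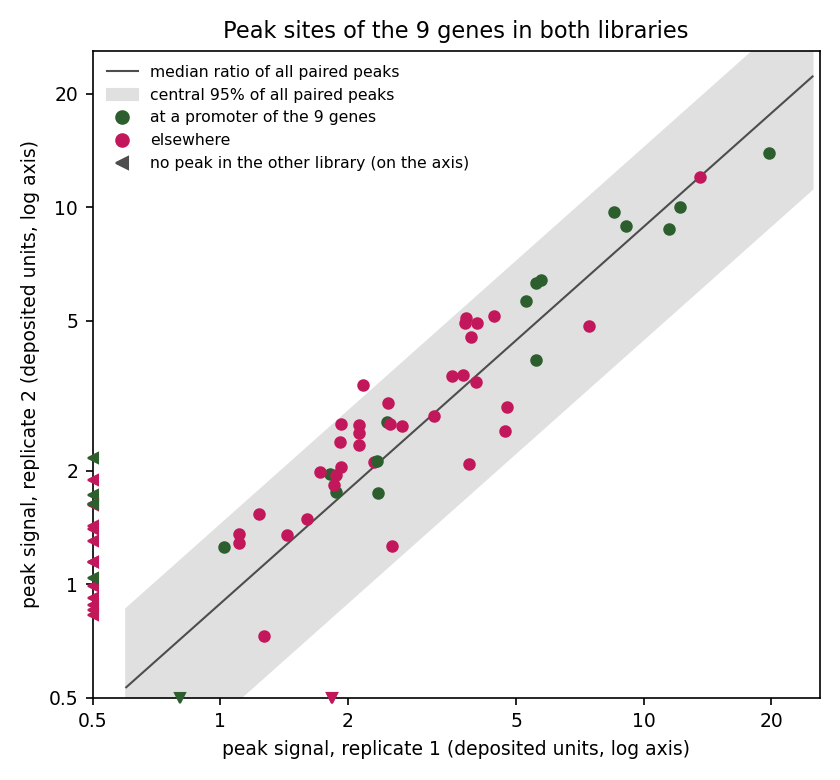
Signal of each of the 70 sites in replicate 1 (horizontal) and replicate 2 (vertical), both on log axes in deposited units; green marks promoters of the 9 genes and pink all other sites. The line is the median ratio and the grey band the central 95% of the 37494 peaks paired over the genome; triangles on an axis are the 20 sites with a peak in 1 library.

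Jak1, the kinase shared by receptors of the interleukin-2, interleukin-6 and interferon families, lies on the minus strand of chr4:101152367-101265282. The promoter peak at its start site had signals of 12.2 and 10.01 (11.1 ± 1.54, SD, n = 2), which exceeded 86.5% and 79.7% of open promoters. A second, weaker promoter peak 434 bp inside the gene was in replicate 2 only (1.64). The 150 bases before the start site are shown because they hold a full cyclic AMP response element, TGACGTCA (capitals), which lay under a footprint in both libraries, 38 bp upstream (chr4:101265283-101265432, minus strand, GRCm38 reference).
Jak1 promoter: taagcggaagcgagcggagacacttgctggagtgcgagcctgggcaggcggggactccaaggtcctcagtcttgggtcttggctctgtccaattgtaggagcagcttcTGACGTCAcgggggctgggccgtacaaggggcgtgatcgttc
This palindrome occurs in 1.79% of the 32851 promoters of the RefSeq set, each of 300 bases. A match to such letters describes the sequence and does not show that a factor was bound.

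Jak1 had 8 peaks in replicate 1 and 12 in replicate 2, spread over a gene of 112916 bp. The strongest outside its promoter lay in an intron 77711 bp from the start, with signals of 3.79 and 4.92. Another intronic site, 82571 bp from the start, read 2.17 and 3.37. It was the only 1 of the 50 sites seen in both libraries whose centred log2 ratio, 0.81, fell outside the central 95% of paired peaks of similar signal. Beyond the end of the gene, in an intron of Raver2, a peak of 2.54 and 1.27 held a CTCF consensus under a footprint in both libraries; CTCF is a factor that marks chromatin loop ends.

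Jak3, the kinase that works only with the common gamma chain of the interleukin-2 family receptors, lies on the plus strand of chr8:71676296-71690575. Its promoter signal was 2.34 and 2.13 (2.24 ± 0.154, SD, n = 2), which exceeded 20.7% and 21.5% of open promoters. A second promoter peak, 222 bp upstream, was in replicate 2 only (1.04), with a peak of 1.00 in the longer list of replicate 1. The highest peak near Jak3 belonged to a neighbour: the promoter of Unc13a, a gene of synaptic vesicle release, at -4535 bp from the Jak3 start, read 4.69 and 2.55. Outside promoters, the strongest peak seen in both libraries was in an exon of B3gnt3 (1.11 and 1.29), within 10 kb of Insl3 as well, and no peak of the shorter list was centred inside the Jak3 gene beyond its promoter window.

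Stat2, a factor of the type I interferon response, lies on the plus strand of chr10:128270559-128292849 and had the simplest landscape. Its promoter signal was 8.49 and 9.70 (9.10 ± 0.854, SD, n = 2), in a peak also within 10 kb of Apof. The stretch before the gene is shown because it holds a RUNX consensus, TGTGGT (capitals), under a footprint in both libraries, 144 bp upstream of the start site of the coding transcript; RUNX factors are regulators of T cell development (chr10:128270359-128270558, plus strand).
Stat2 promoter: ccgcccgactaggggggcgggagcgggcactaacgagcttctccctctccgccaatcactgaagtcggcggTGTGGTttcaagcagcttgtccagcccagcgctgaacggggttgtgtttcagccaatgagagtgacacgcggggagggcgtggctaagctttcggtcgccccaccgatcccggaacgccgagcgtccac
TGTGGT is common, being found in 16.8% of the RefSeq promoters. The only other peak was 13635 bp into the gene, with signals of 1.27 and 0.731. Its centre fell in an intron in replicate 1 and in an exon in replicate 2. A CTCF consensus lay under a footprint in both libraries, inside the peak of replicate 1 and just beyond the end of that of replicate 2. It is shown in capitals on the plus strand (chr10:128284224-128284275).
Stat2 intronic CTCF site: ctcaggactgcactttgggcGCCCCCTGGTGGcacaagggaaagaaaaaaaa
A consensus of these letters (CCANNAGNNGGC on either strand) was found in 16.1% and 11.5% of all 300 bp peak windows.

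Stat5b, Stat5a and Stat3 adjoin each other over 158810 bp of chromosome 11, so several peaks count for more than 1 gene. Stat5b runs on the minus strand (chr11:100780731-100850724) and Stat5a on the plus strand (chr11:100859351-100885169), with start sites 8627 bp apart. Stat3 runs on the minus strand (chr11:100885098-100939540), and its end overlaps that of Stat5a by 72 bp. In all, 8 of the 70 sites lay in the spans of at least 2 of these genes, 4 shared by Stat5b and Stat5a and 4 by Stat5a and Stat3.

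Stat3, which carries signals of the interleukin-6 family, had the highest promoter signal of the 9 genes, 19.8 and 13.9 (16.8 ± 4.17, SD, n = 2). Its SD was also the largest, although as a centred log2 ratio Stat2 was farther from the median of all pairs (0.37 against -0.34). The peak was 220 bp wide in replicate 1 and 60 bp in replicate 2. A full cyclic AMP response element stood 281 bp upstream, under a footprint in both libraries, across the outer edge of the peak of replicate 1 and outside that of replicate 2. It is shown in capitals in the 300 bases before the start site (chr11:100939541-100939840, minus strand).
Stat3 promoter: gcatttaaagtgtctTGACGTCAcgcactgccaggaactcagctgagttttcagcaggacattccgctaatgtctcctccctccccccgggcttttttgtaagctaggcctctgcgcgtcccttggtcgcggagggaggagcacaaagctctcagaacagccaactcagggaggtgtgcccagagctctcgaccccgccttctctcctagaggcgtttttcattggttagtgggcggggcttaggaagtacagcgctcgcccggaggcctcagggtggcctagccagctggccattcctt
Jak1 and Stat3 were the genes among the 9 with this palindrome under a footprint upstream of the start, and another copy lay downstream of Socs1.

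Outside its promoter, the Stat3 site with the highest mean signal was an intronic peak 45919 bp from the start, with signals of 7.42 and 4.83. A second, 47619 bp from the start, read 4.04 and 4.92. Both also lie within 10 kb of the end of Stat5a, and the first had the highest mean signal outside promoters in the spans of both genes. The other intronic peaks of Stat3 that were seen in both libraries had signals of 1.35 to 2.66.

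Stat5a and Stat5b, closely related factors that carry interleukin-2, interleukin-7 and growth hormone signals, had promoters of similar signal. Stat5a read 5.55 and 6.30 (5.92 ± 0.533, SD, n = 2) and Stat5b read 5.56 and 3.94 (4.75 ± 1.14, SD, n = 2), with overlapping values. The open site of Stat5a was at the last of its 3 start sites, 1133 bp inside the gene. No peak of the shorter list was centred within 1 kb of the first start site in either library. The edge of the open site still fell in that window, and the longer list had peaks of 0.859 and 1.25 centred there. In the RefSeq promoters, the ratio of observed to expected CpG was 0.800 at the last start site and 0.202 at the second. Stat5b had a second open start site inside the gene, with 2.47 and 2.70.

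Stat5b held 10 peaks in each library, of which 1, with 3.19 and 2.80, was the promoter of Ghdc, also within 10 kb of Hcrt. The strongest outside promoters, in an intron 36073 bp from the start, read 4.43 and 5.13. A second intronic peak, 26563 bp from the start, read 3.79 and 5.09, and was the only site of the 9 genes with both a RUNX and a TCF7/LEF1 consensus (TCAAAG, the T cell factors of the Wnt pathway) under footprints in both libraries. It is shown on the minus strand with both matches in capitals, the RUNX match reading as its reverse complement ACCACA; a second copy of these letters, in lower case, was under no footprint in either library (chr11:100824041-100824280).
Stat5b intronic peak: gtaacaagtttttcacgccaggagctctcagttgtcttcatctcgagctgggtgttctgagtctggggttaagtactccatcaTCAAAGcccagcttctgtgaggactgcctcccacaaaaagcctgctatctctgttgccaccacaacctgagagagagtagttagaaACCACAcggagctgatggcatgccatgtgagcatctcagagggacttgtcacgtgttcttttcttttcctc
Over all 300 bp peak windows, TGTGGT was found in 21.2% and 21.8% and TCAAAG in 16.3% and 16.7%, so either alone is frequent. The strongest Jak1 peak outside its promoter also held both, under footprints of replicate 2 only.

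**Figure D4:**
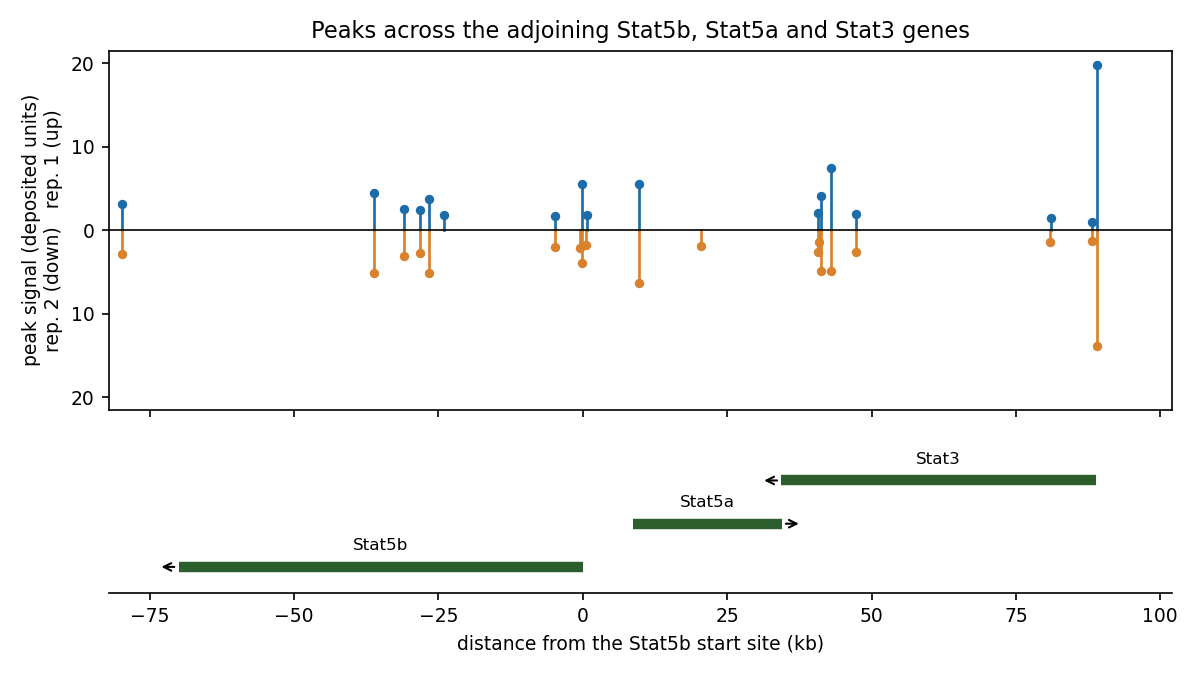
Signal of each peak (vertical axis, deposited units) along the Stat5b, Stat5a and Stat3 genes, in kb from the Stat5b start site, with replicate 1 upward and replicate 2 downward; bars below are the genes and arrows their direction. The Stat3 promoter at the right reaches 19.8 and 13.9, and a group of intronic peaks near the end of Stat3 reaches 7.42 and 4.92.

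Stat4, which acts downstream of interleukin-12, had the lowest promoter signal of the 9 genes, 1.82 and 1.96 (1.89 ± 0.0993, SD, n = 2). It lies on the plus strand of chr1:51987148-52107189. That peak was at the second start site, 21095 bp inside the gene. Within 1 kb of the first start site neither peak list of either library had a peak, and no base was in the authors' list of base runs, which goes up to a q-value of 0.05. At the second start site 651 and 426 of the bases within 1 kb were listed. In both windows the CpG ratio was low, 0.104 at the first and 0.253 at the second, against a median of 0.384 over RefSeq promoters. An intronic peak 17133 bp from the first start was stronger than the promoter, with 3.86 and 2.09. It held the palindrome with the wider spacing that Stat6 prefers (TTCNNNNGAA, in 6.95% of RefSeq promoters) under a footprint of replicate 2 only.

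The strongest peak in the Stat4 span, 13.6 and 12.1, was not in the gene but between genes downstream, 90 bp from the start of the long noncoding RNA gene Gm31812. Whether it acts on Stat4 was not tested. It held an interferon response element (GAAANNGAAA) under a footprint in both libraries. The element was found in 3.18% and 3.21% of all 300 bp peak windows.

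Stat6, which carries interleukin-4 and interleukin-13 signals, lies on the plus strand of chr10:127642986-127660957. Its promoter signal was 5.73 and 6.43 (6.08 ± 0.498, SD, n = 2). Accessibility around this start was broad: 1994 of 2001 bases within 1 kb were listed in replicate 1 and 2001 in replicate 2, against medians of 516 and 523 over all genes. Outside promoters, a peak 1045 bp upstream, just beyond the promoter window, had the highest mean signal (4.74 and 2.95), and an intronic peak 1065 bp inside the gene read 4.01 and 3.43. In replicate 2 the first of these was below the second, and below peaks of 3.57 and 3.59 in introns of the neighbours. Of the 15 Stat6 sites, 10 lay within 10 kb of Nab2 and Nemp1, and 5 of these were at the promoters of those genes, so much of the peak count of Stat6 comes from neighbours. Without the flanks Stat6 had 2.5 peaks as the mean of both libraries.

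Socs1, which binds and inhibits JAK kinases, is a short gene on the minus strand of chr16:10782240-10785536. It had 3 promoter peaks in each library. The peak 355 bp inside the gene read 11.4 and 8.74, the peak at the start site 9.09 and 8.93, and the peak 995 bp upstream 5.28 and 5.64. The highest per library, the peak inside the gene in replicate 1 and that at the start site in replicate 2, gave 10.2 ± 1.78 (SD, n = 2). Taken peak by peak, the centred log2 ratio was -0.22 inside the gene and 0.15 at the start site. All 2001 bases within 1 kb of the start were listed in both libraries, as for 1.35% and 1.36% of protein-coding genes. The neighbours Prm2, Prm3 and Tnp2, sperm chromatin genes, lie within 10 kb, and the Tnp2 promoter held a peak of 2.51 and 2.67.

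The 150 bases before the Socs1 start are shown because they hold an interferon response element, GAAACCGAAA (capitals), under a footprint in both libraries, 72 bp upstream. An overlapping match to the same consensus just before it, in lower case, did not lie wholly under a footprint (chr16:10785537-10785686, minus strand).
Socs1 promoter: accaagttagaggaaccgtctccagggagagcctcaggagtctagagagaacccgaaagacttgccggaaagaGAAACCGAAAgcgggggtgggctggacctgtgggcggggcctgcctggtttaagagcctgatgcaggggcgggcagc
This element occurs in 3.44% of RefSeq promoters. Among the 12 RefSeq promoters of the 9 genes it was in 3, of Socs1, of Stat2 and of the second start of Stat4. It was under a footprint in both libraries at Socs1 and at the peak downstream of Stat4.

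The STAT consensus TTCNNNGAA was searched across all 9 spans, and 3 distinct matches lay under footprints, all of them near Socs1. A pair of matches 2043 and 2069 bp upstream was under footprints in replicate 2 only, outside the peaks of the shorter list (chr16:10787565-10787619, minus strand). The other, in a peak 13235 bp downstream of the start (3.91 and 4.53), was under a footprint in replicate 1 only (chr16:10772319-10772367, minus strand).
Socs1 upstream pair: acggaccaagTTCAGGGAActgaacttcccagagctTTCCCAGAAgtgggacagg
Socs1 downstream match: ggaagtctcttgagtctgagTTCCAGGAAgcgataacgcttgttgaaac
None of the 3 was under a footprint in both libraries, and none was wholly inside a footprint as listed, before it was widened by 5 bp on each side. Over the genome 0.268% and 0.312% of footprints held this consensus, against 1 of 276 and 2 of 362 in the spans of the 9 genes. The consensus was in none of the 12 RefSeq promoters of the 9 genes and in 8.30% of all. The GATA consensus AGATAA was under no footprint in the 9 spans, and over the genome under 0.258% and 0.261% of footprints.

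**Figure D5:**
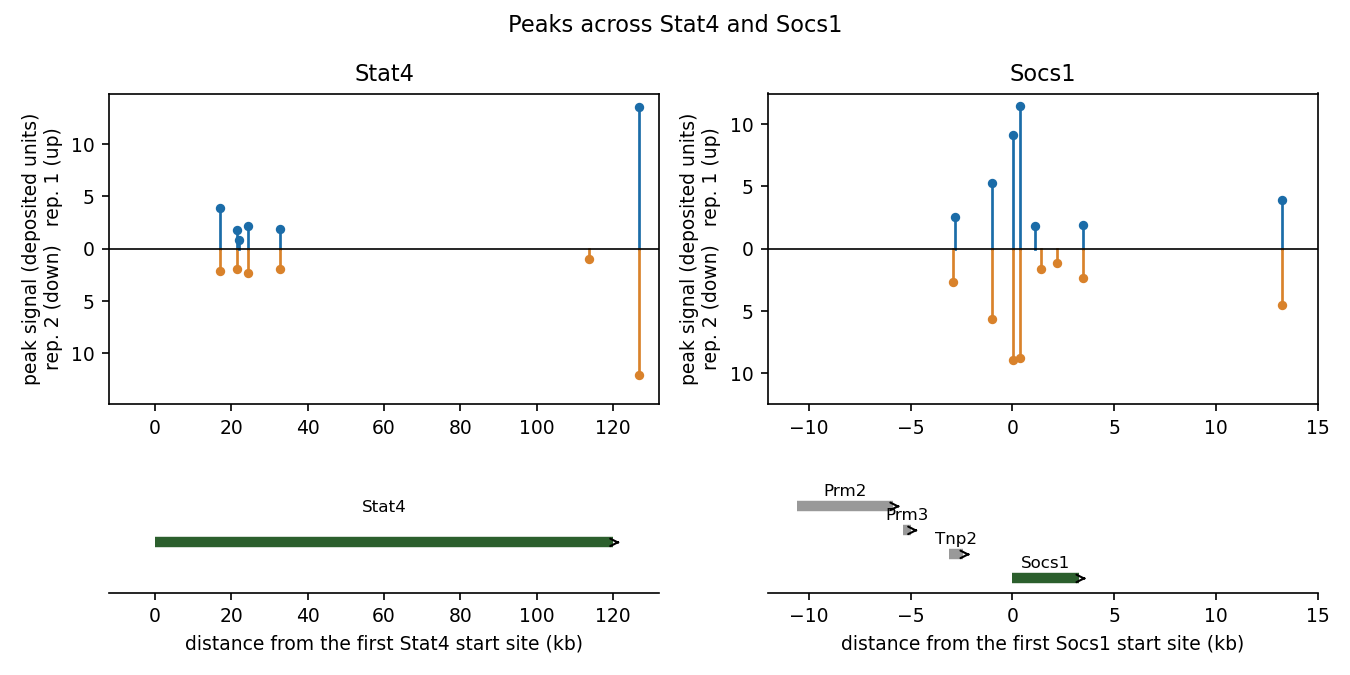
Signal of each peak (vertical axis, deposited units) across Stat4 (left) and Socs1 (right), in kb from the first start site of each gene, with replicate 1 upward and replicate 2 downward; bars below are the genes, neighbours in grey. No peak stands at 0 kb in Stat4 and the highest, 13.6 and 12.1, lies beyond its end, while the Socs1 peaks cluster around its start.

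The other genes of the pathway were taken from lists by role. The promoters of the kinase genes Tyk2, with 6.40 and 7.84, and Jak2, with 6.49 and 4.72, were open in both libraries. All 16 other inhibitors were open in both libraries, against 53.4% of all protein-coding genes. They were led by Pias4 (21.5 and 20.5), Ptpn1 (15.7 and 15.6) and Pias1 (14.1 and 9.72), which are SUMO ligases of the PIAS family and a tyrosine phosphatase. All 10 textbook STAT targets were also open in both libraries, against the same 53.4%. The highest were the kinase gene Pim1 (14.5 and 11.6) and the interferon factor genes Irf1 (11.3 and 11.4) and Irf9 (8.65 and 7.46).

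Of 21 receptor genes, 18 were open in both libraries, against 53.4% of all protein-coding genes. The receptor count dropped to 12 with the stronger 50% of peaks. Ifngr1 (21.9 and 20.7) and Ifnar1 (13.6 and 14.2), of the interferon receptors, and Il4ra (7.99 and 6.86) had the highest signals. Il2ra, Il12rb1 and Csf2rb had no promoter peak in either library, although Il2ra had one of 0.724 in the longer list of replicate 2. In the gene and its 10 kb flanks, Il2ra still had 5 and 8 peaks, Il12rb1 6 and 7, and Csf2rb 2 and 1. Of the 12 cytokine genes, 3 were open in both libraries, against the same 53.4% of all protein-coding genes. The count was 0 with the stronger 50% of peaks and 5 with a window of 2500 bp. The 3 were Il15 (0.564 and 0.665), Il6 (0.608 and 0.359) and Il7 (0.376 and 0.554), the last a product of thymic stroma. The other 9, Il2, Il4, Il9, Il10, Il12a, Il21, Ifng, Tslp and Lif, had no promoter peak in either list of either library.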

How the data were processed

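DNase-seq had been run on 2 thymus libraries of 1 group. Per the file headers, the peaks (a shorter and a longer list), footprints and base runs were made on mm10 for each library alone. The aligner, peak caller and thresholds were not stated there. The peak signal is as the authors deposited it, on an unstated scale, and depth is unknown, so no counting interval is given. The q-values per base run, up to 0.05, are as the authors deposited them. Footprints were used by position only.

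Genes and start sites came from the GENCODE vM21 basic annotation, sequence from GRCm38 (the assembly that mm10 names, with every peak and footprint inside its chromosome ends), and promoters from RefSeq (GRCm38.p6). The reference is that of B6, and CAST alleles were not read. A promoter peak has its centre at most 1 kb from the start of a coding transcript, and promoter signal is that of the highest such peak. Overlap means at least 1 bp. Consensus sequences (12, both strands) counted as under a footprint when wholly inside one widened by 5 bp on each side, and positions are from the middle of the match to the first start site. The letters searched for Ikaros were TGGGAA. Values are given per library or as mean ± SD over 2 libraries. Python 3.11.15, numpy 2.4.6, pysam 0.24.0 and bedtools 2.31.1 were used, and the counting functions were tested on simulated data. The named genes were all 9 members, the strongest peak of each outside promoters, neighbours that share a peak, and, in each pathway list, the top 3 by mean promoter signal and all without a peak; a few items are not reported here. Members, lists and rules were chosen with earlier results of these data known. Alternatives changed the peak list, window, flanks, overlap and libraries.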

Additional observations from a re-analysis of the deposited data

How the results depend on the processing

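The 9 promoters with a peak in both libraries stayed 9 under every setting run: the longer list, the stronger 50% of peaks, windows of 500 and 2500 bp, start sites of all transcripts, each library alone and, added after seeing the data, any overlap with the window. The median number of peaks, 7.5 as the mean of the 2 libraries, was 11 with the longer list, 6 with the stronger 50%, 3.5 without flanks and 5.5 with peaks within 500 bp joined; over all genes these were 3, 1, 1 and 1.5. Leaving out a library gave 7 to 8. The median of 45.5 footprints was 17 without flanks, and 34 to 57 with 1 library left out. The share of peaks over 1 kb from start sites, 60.04%, was 65.3% with the longer list, 56.9% with the stronger 50%, 69.98% and 49.2% for distances over 500 and 2500 bp, and 65.7% without flanks. Footprints shared between libraries, 53.4% as a mean, came to 41.5% when the overlap had to reach 50% of both. STAT matches under footprints, 1.5 per library, were 0 without flanks and 0 with footprints as listed. Apart from leaving out a library, which with 2 libraries cannot move a mean by 1 SD, 44 of 45 promoter signals were identical, the exception being Stat5b with the 2500 bp window (5.32 against 4.75). That window also turned the centred log2 ratio of Stat5b from -0.32 to 0.05, and the ratio as deposited turned that of Jak3 from 0.03 to -0.14. Of 36 peak counts, 11 moved by over 1.5 times. With the stronger 50% of peaks, 15 of 16 inhibitors, 9 of 10 targets, 12 of 21 receptors and 0 of 12 cytokines were open in both libraries. The share of all protein-coding genes was computed only for the shorter list (53.4%) and the longer list (57.8%). Counts of open promoters under the other settings therefore have no such share beside them. The longer list could not be applied to the STAT matches, which use no peak list. No paired analysis was possible because there is only 1 group. Depth is unknown, so the absence of a peak in 1 library cannot be read as closed chromatin.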

Other observations

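Among the other consensus sequences under footprints in the spans of the 9 genes, SP/KLF (GGGCGG) had 37 distinct matches, 24 of them in both libraries. It was in 8.33% and 8.84% of their footprints in replicates 1 and 2, against 9.66% and 9.37% of all footprints. Ikaros had 12, of which 3 were in both (1.45% and 3.31% against 1.64% and 1.64%). TCF7/LEF1 had 8, of which 1 was in both (0.725% and 1.93% against 0.960% and 1.09%). The E-box CAGCTG had 10, of which 1 was in both (1.45% and 1.93% against 1.66% and 1.81%). The cyclic AMP response element had 3, all in both libraries (1.09% and 0.829% against 0.313% and 0.304%): at the Jak1 and Stat3 promoters and 3465 bp downstream of the Socs1 start. The ETS consensus (CCGGAAG) had 1, in replicate 2 only, in a Jak1 intron 4335 bp from the start (0 and 0.276% against 1.17% and 1.19%). RUNX had 3, of which 2 were in both (0.725% and 0.829% against 1.77% and 1.71%). CTCF had 4, of which 3 were in both (1.45% and 0.829% against 3.70% and 2.54%). ETS, RUNX and CTCF matches were thus less frequent in footprints of the 9 spans than in all footprints. In replicates 1 and 2 this rests on 0 and 1 footprints for ETS, 2 and 3 for RUNX and 4 and 3 for CTCF. Such counts are too small to read as a trait of the genes. A CTCF match 349 bp inside Socs1 was among those in both libraries. Replicate 2 had 362 footprints in the 9 spans and replicate 1 had 276.

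Promoter CpG content varied among the genes. The ratio of observed to expected CpG in the RefSeq promoters was highest for the main start of Stat5b (1.01) and for Jak1 (0.947) and lowest for the first start of Stat4 (0.104). Stat3, with the highest promoter signal, had a ratio of 0.545, while Stat6, with a window listed over nearly its whole length, had 0.324, below the median of 0.384.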
